A study of Mus musculus with 12 samples.

Results

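The 36 genes described here act in the G2 phase and in mitosis of the mouse cell cycle, and they were chosen by symbol from a list, with their Ensembl identifiers matched to the rows of the count table. They are 36 of the 54446 genes in that table, and all 36 were among the 16833 genes that passed a filter on low counts. The genes were not chosen by their values here, but earlier results of the same tumours were known when the list was made. Gene expression was measured by stranded poly(A) RNA sequencing of bulk tumours grown from Sq-1979 cells, a mouse line that the labels call a head and neck squamous cell carcinoma. In every group the graft, 6000000 cells in a volume of 0.1 mL to which the same volume of Matrigel (a basement membrane gel) was added, was placed under the back skin of male C3H/HeN mice aged 6 weeks. The 4 groups of 3 tumours were given vehicle, a rat antibody to mouse PD1 (anti-PD1), SN-38, or anti-PD1 together with SN-38, called the combination below. PD1 is an inhibitory receptor of T cells, and SN-38 is the active metabolite of irinotecan and an inhibitor of topoisomerase I. Doses, schedules and the time of collection are not given in the sources used here. Tumours carry the numbers 1 to 3 within a group. Whether every tumour grew in its own mouse is not stated, so a p-value speaks only of the spread between these samples, which may be technical in part. A subcutaneous graft of 1 cell line also holds host stroma and immune cells, and in bulk RNA fewer dividing cells and less mitotic RNA per cell cannot be told apart.

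Transcripts of the mitotic programme build up as cells pass through G2 and are lost after division. Their summed level in a tissue thus depends in part on the share of cells that are cycling. The transcription factor Foxm1 and the MuvB complex with B-Myb activate these genes through a promoter element named the cell cycle genes homology region (CHR), while NF-Y binds CCAAT boxes beside it. In resting cells the same CHR is held by the repressive DREAM complex. Topoisomerase I inhibitors damage DNA during replication, and checkpoints then hold cells before mitosis by keeping Cdk1 inactive.

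RefSeq promoters of build GRCm38.p6, each 250 bases before and 50 bases from the transcription start, were found for 30 of the 36 genes (33 promoters). No promoter was matched for Tpx2, Ccna2, Cdc25c, Kif20a, Aurkb and Foxm1. The motifs searched on both strands were CHR as TTTGAA or TTCGAA, the NF-Y box as CCAAT, and E2F sites as TTTCCCGC, TTTCGCGC, TTTGCCGC or TTTGGCGC. The 6 promoters below are shown because the genes carry the results that follow. Ccnb2, Ttk, Kif23 and Gtse1 had the smallest p in the test of the interaction between the treatments, and Ube2c and Cenpe had the lowest and the highest difference between the combination and vehicle. Each is written 5′ to 3′ on the gene's own strand, and capitals mark the CHR and CCAAT matches in either orientation.
Ccnb2, chr9:70421505-70421804, minus strand: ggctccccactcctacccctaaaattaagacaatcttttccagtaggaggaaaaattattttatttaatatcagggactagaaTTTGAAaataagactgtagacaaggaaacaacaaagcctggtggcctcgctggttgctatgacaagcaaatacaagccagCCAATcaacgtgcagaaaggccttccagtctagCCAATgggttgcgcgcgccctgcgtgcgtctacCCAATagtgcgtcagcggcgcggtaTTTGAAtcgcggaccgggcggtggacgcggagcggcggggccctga
Ttk, chr9:83834439-83834738, plus strand: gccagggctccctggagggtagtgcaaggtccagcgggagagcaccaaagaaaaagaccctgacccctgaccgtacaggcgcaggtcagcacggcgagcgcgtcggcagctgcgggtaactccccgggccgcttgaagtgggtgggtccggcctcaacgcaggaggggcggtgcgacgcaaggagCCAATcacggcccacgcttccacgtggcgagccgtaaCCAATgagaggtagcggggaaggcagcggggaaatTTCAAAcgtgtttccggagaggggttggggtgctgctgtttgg
Kif23, chr9:61946750-61947049, minus strand: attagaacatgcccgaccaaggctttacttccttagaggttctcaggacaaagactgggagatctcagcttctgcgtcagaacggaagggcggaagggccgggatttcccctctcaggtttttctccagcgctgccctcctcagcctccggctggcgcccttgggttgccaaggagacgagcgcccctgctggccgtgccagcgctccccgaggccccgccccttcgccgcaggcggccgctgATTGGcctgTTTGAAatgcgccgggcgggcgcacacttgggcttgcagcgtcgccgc
Gtse1, chr15:85859457-85859756, plus strand: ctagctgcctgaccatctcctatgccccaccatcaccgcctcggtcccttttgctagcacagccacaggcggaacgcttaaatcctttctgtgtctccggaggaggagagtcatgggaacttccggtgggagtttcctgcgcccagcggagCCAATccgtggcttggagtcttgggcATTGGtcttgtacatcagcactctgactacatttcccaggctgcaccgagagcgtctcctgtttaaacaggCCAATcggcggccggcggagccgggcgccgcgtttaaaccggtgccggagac
Ube2c, chr2:164769679-164769978, plus strand: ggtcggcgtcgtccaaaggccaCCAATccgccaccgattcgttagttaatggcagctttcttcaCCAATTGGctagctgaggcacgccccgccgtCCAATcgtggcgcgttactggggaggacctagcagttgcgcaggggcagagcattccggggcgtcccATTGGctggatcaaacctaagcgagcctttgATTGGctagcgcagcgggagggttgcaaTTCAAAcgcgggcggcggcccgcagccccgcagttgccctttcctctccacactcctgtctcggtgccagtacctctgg
Cenpe, chr3:135212313-135212612, plus strand: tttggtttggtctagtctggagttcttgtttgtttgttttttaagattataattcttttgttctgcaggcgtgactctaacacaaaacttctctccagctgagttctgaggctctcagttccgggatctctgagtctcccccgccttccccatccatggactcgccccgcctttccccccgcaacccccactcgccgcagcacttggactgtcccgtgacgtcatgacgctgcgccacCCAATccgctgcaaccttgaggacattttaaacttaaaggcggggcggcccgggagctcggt

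The Ccnb2 promoter holds 2 CHR matches, 1 of them 5 bases past the start, and 3 CCAAT boxes whose first bases lie at -87, -54 and -21. Ttk has a CHR at 8 and CCAAT boxes at -65 and -28, Kif23 a CHR at 3 and a CCAAT box at -7, and Ube2c a CHR at -29 behind 6 CCAAT matches, of which the pair at -186 and -183 overlap each other. The Gtse1 promoter shown and the Cenpe promoter have CCAAT boxes, 3 and 1, and no CHR letters in this window. A CHR match was present in 26 of the 33 promoters (78.8%), against 19.2% of all 32851 mouse promoters of the same length. CCAAT was present in 26 of the 33 (78.8%) against 37.4%, and both together in 22 (66.7%) against 7.52%. An E2F match was found in 1, that of Cdk1 (3.03% against 2.26%), and none of the 3 motifs in Birc5, Nuf2 and Nusap1. Of the 36 CHR matches, 25 lay within 50 bases of the start, with a median distance of -1, and the 60 CCAAT matches had a median distance of -75.5. No match overlapped one of another motif. These matches are a description of the letters and not evidence of binding.

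**Figure D1:**
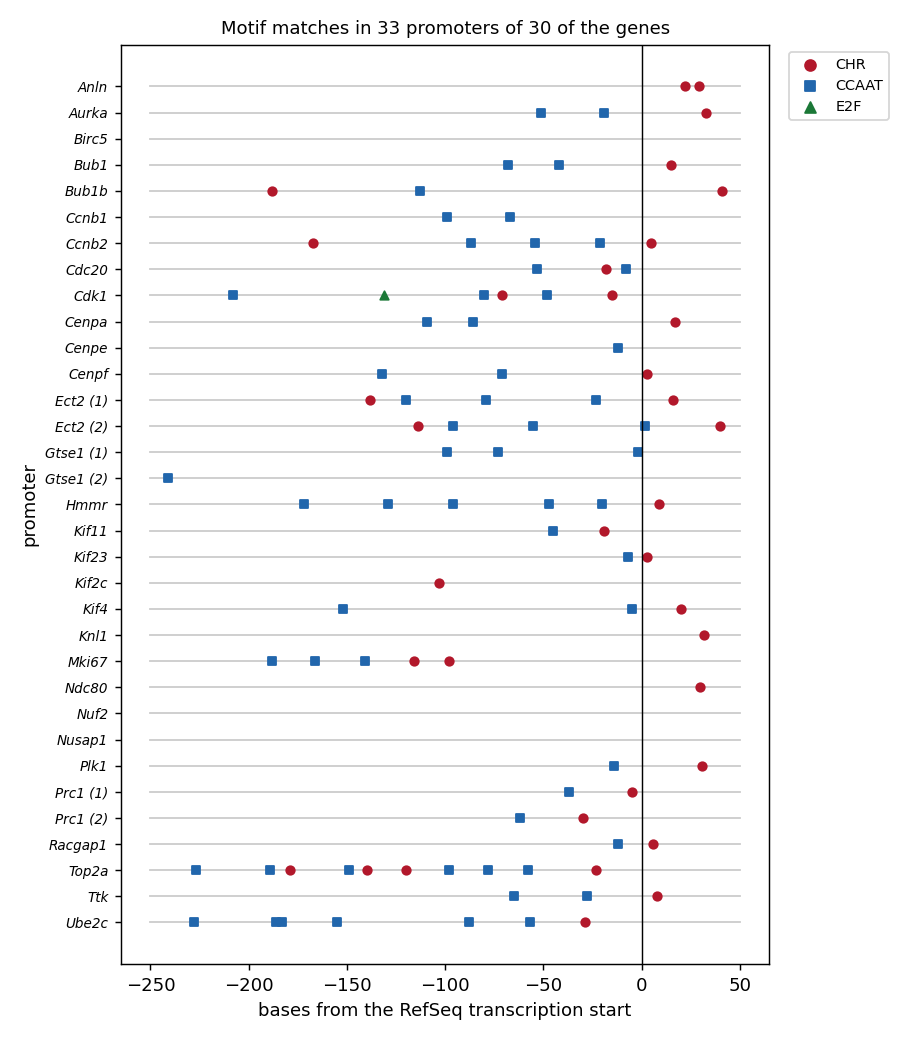
Positions of CHR (circles), CCAAT (squares) and E2F (triangle) matches in the 33 RefSeq promoters of 30 of the genes, in bases from the transcription start (vertical line), with 1 line per promoter. CHR matches gather near the start, 25 of 36 within 50 bases, and CCAAT matches lie mostly before it, at a median of -75.5.

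Total counts per tumour were between 21088288 and 28512141, and the TMM scaling factors lay between 0.9697 and 1.0257. The lowest count of any of the 36 genes in any tumour was 227, so counting error was small beside the spread between tumours. Levels in CPM, the usual scaling of read counts to library size, ran from 8.36 for Cdc25c to 538.8 for Mki67 and are not corrected for gene length. Divided by the length of the merged exons, the highest vehicle levels were those of Cdc20 (62.7 CPM per kilobase), Ccnb2 (41.8) and Top2a (41.3), and the lowest those of Cdc25c (3.48), Knl1 (3.88) and Ndc80 (4.89). All 17 squamous markers of the cell type check were detected, Krt5 at 7040 ± 708 CPM (SD, n = 3) in vehicle tumours. The summed squamous level was 19115 to 22760 CPM with vehicle, 16876 to 20410 under anti-PD1, 17099 to 20574 under SN-38 and 12621 to 22650 in the combination.

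Across the 4 groups the mitotic genes formed 1 shared pattern. For all 36, the mean of the anti-PD1 tumours and the mean of the SN-38 tumours were both below the vehicle mean and below the combination mean. The score of the genes, their mean log2 CPM in each tumour, was 5.98, 6.33 and 6.19 in the vehicle tumours and 5.66, 5.94 and 5.79 with anti-PD1. It was 5.27, 5.87 and 6.22 under SN-38 and 6.35, 6.10 and 5.98 in the combination. Every anti-PD1 tumour lay below every vehicle tumour and every combination tumour, while the SN-38 tumours spanned almost the whole range. The means were 6.16 ± 0.17 for vehicle, 5.80 ± 0.14 for anti-PD1, 5.79 ± 0.48 for SN-38 and 6.14 ± 0.19 for the combination (SD, n = 3 each). No gene among the 36 passed an adjusted p of 0.05 in any of the 5 pairwise comparisons or in the interaction, with edgeR's quasi-likelihood test and Benjamini-Hochberg adjustment over all genes.

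**Figure D2:**
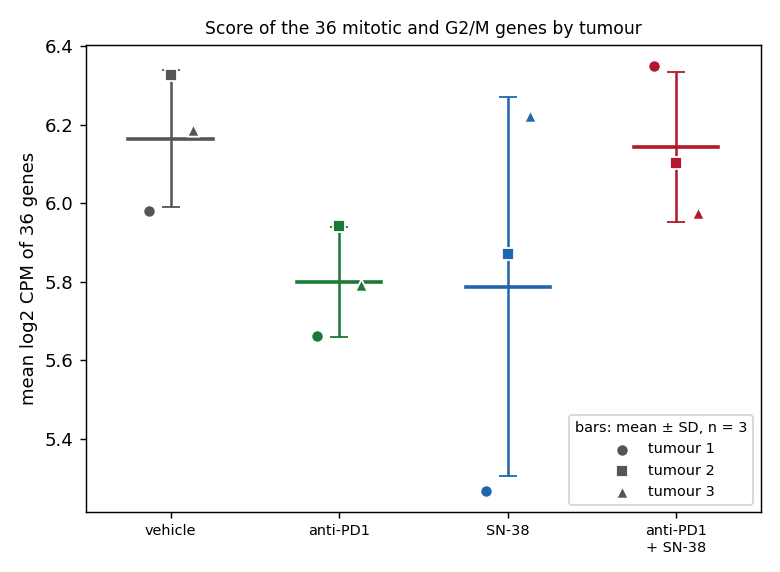
Score of the 36 genes (mean log2 CPM, vertical axis) in each of the 12 tumours by treatment group. Symbols are tumours 1, 2 and 3 and bars the mean ± SD (n = 3). The 3 anti-PD1 tumours sit between 5.66 and 5.94, below all vehicle tumours, and the SN-38 tumours spread from 5.27 to 6.22.

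SN-38 tumour 1 held the lowest value of 35 of the 36 genes, and the exception was Gtse1, which was lowest in anti-PD1 tumour 1. It lay below all 3 vehicle tumours for 36 genes, SN-38 tumour 2 for 28 and SN-38 tumour 3 for 1, Ttk. The median log2 ratio of the genes to their vehicle means was -0.90, -0.32 and 0.07 in these 3 tumours. The 3 tumours given the same drug therefore did not share a level of mitotic RNA. With anti-PD1 the medians were -0.53, -0.24 and -0.39, and 34, 21 and 34 genes lay below all vehicle tumours. With the combination they were 0.16, -0.10 and -0.21, and 0, 10 and 25 genes lay below them. Combination tumour 1 held the highest value of 16 genes and vehicle tumour 2 of 13.

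SN-38 tumour 1 also had the highest summed level of the 10 genes of the neutrophil list, 384.9 CPM. The sum was 60.8 and 96.9 in SN-38 tumours 2 and 3, and 79.4 to 101.5 in vehicle tumours. It was 72.8 to 111.8 with anti-PD1 and 104.9 to 196.3 with the combination, with Ly6g and Retnlg below the count filter. The list includes the chemokine genes Cxcl5 and Cxcl3, at 78.3 and 22.8 CPM in SN-38 tumour 1, so the sum is not a measure of neutrophils alone. The total count of SN-38 tumour 1, 26931148, and its squamous score of 8.53 were inside the ranges of the other tumours. Fibroblast markers (16 of 16 detected) summed to 30048 to 39384 CPM with vehicle, 8452 to 39571 under anti-PD1, 12094 to 78168 under SN-38 and 8670 to 22451 in the combination. T-cell markers (13 of 13) summed to 97.1 to 116.0, 102.0 to 264.0, 86.7 to 121.6 and 109.1 to 312.8 CPM in the same order. Macrophage markers (11 of 11) summed to 576.7 to 730.1, 583.04 to 1166, 429.2 to 672.1 and 615.5 to 1287 CPM, and endothelial markers (10 of 10) to 139.0 to 165.5, 140.8 to 181.9, 153.9 to 175.2 and 187.0 to 216.8. Muscle markers (12 of 12) summed to 214.9 to 423.3, 149.05 to 261.2, 67.7 to 230.8 and 24.3 to 232.3 CPM.

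Some of these lists moved with the groups in part as the mitotic genes did. Muscle markers were lower than with vehicle in 12 of 12 with anti-PD1 (median log2 difference -0.58) and in 11 of 12 with SN-38 (-1.14), but also in 11 of 12 with the combination (-1.14), and 11 of 12 were above 0 in the interaction (0.46). Macrophage markers were higher in the combination in 11 of 11 against anti-PD1 (0.22) and in 11 of 11 against SN-38 (0.64), with 10 of 11 above 0 in the interaction (0.40). Endothelial markers were higher in the combination in 9 of 10 against anti-PD1 (0.36) and 8 of 10 against SN-38 (0.21), with 9 of 10 above 0 in the interaction (0.30). Against vehicle, macrophage markers were higher in 9 of 11 and endothelial markers in 5 of 10 with anti-PD1, where all mitotic genes were lower. With SN-38, macrophage markers were lower in 8 of 11, as the mitotic genes were, and endothelial markers higher in 7 of 10. With the combination they were higher than with vehicle in 11 of 11 and in 9 of 10. No marker of these 3 lists passed the threshold in any comparison, and the part of other cell types in the mitotic levels was not tested.

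With all groups pooled, the 36 genes varied more between tumours of a group than other genes. Their median biological coefficient of variation, a single estimate per gene over all groups, was 0.191, against 0.121 for the 8883 genes of the same range of level. The spread was not even: the SD of the score was 0.17 with vehicle, 0.14 with anti-PD1, 0.48 with SN-38 and 0.19 with the combination. The highest tumour exceeded the lowest by 1.81 times (Gtse1) to 2.85 times (Mki67), with a median of 2.22.

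**Figure D3:**
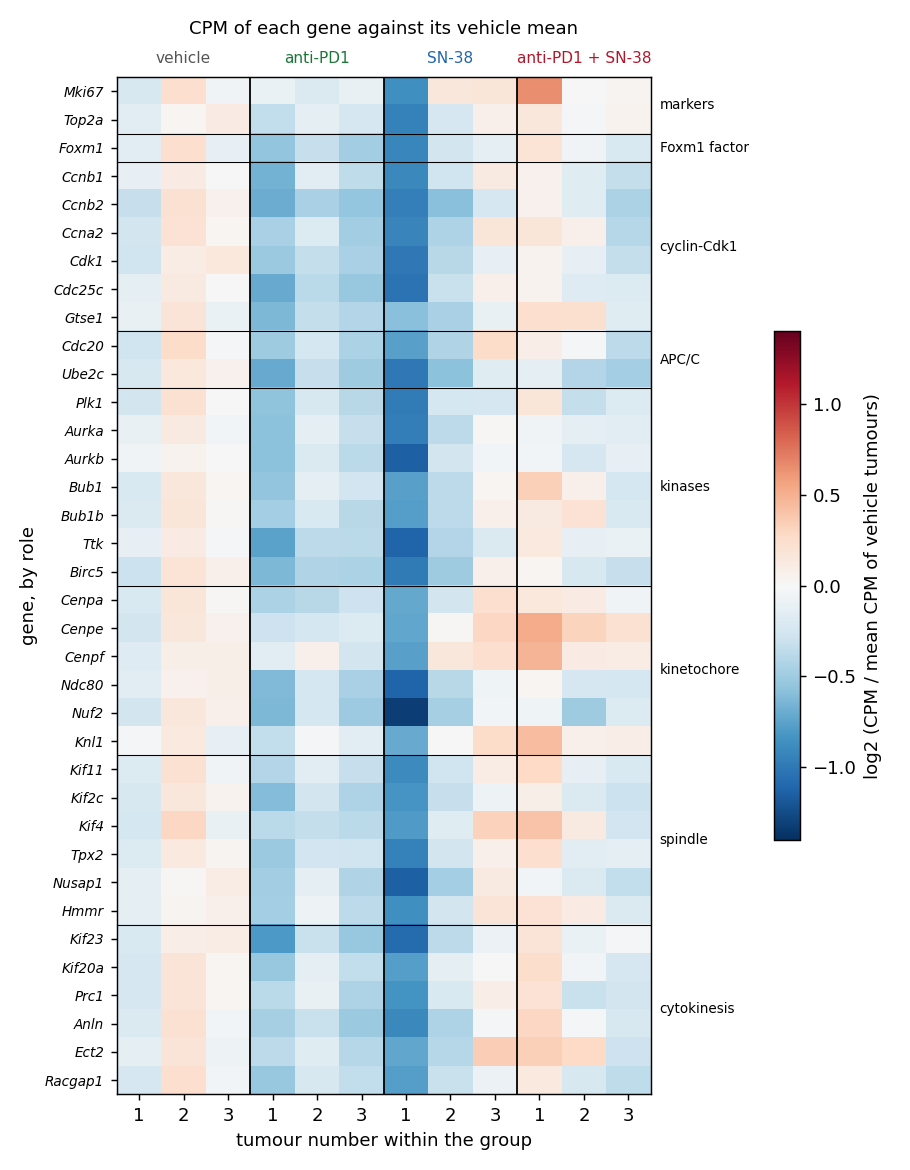
CPM of each of the 36 genes in the 12 tumours as the log2 ratio to the gene's vehicle mean (colour scale), with genes in rows by role and tumours in columns by group. SN-38 tumour 1 is the darkest column, lowest for 35 genes, and all anti-PD1 columns are mostly blue.

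The proliferation markers in the set, Mki67 (the Ki-67 antigen, which coats mitotic chromosomes) and Top2a (topoisomerase II alpha, which untangles sister DNA), had the highest CPM of the 36. Mki67 stood at 294.5, 404.9 and 332.5 CPM with vehicle, 323.0, 299.6 and 320.6 under anti-PD1, 189.1, 384.5 and 388.1 under SN-38 and 538.8, 343.1 and 352.5 in the combination. Its groups overlapped, except that all combination tumours were above all anti-PD1 tumours, and combination tumour 1 stood apart as the highest. Top2a stood at 334.6, 380.4 and 402.1 CPM with vehicle, 293.7, 339.4 and 315.8 under anti-PD1, 192.8, 315.2 and 390.3 under SN-38 and 415.0, 367.0 and 385.5 in the combination. Its anti-PD1 and vehicle tumours overlapped through anti-PD1 tumour 2. Foxm1, the activator of the programme, was at 83.7, 109.5 and 85.8 CPM with vehicle, 63.5, 74.6 and 66.3 under anti-PD1, 49.3, 78.1 and 84.9 under SN-38 and 106.5, 89.6 and 80.5 in the combination. All 3 anti-PD1 tumours were below every vehicle and every combination tumour.

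Among the genes of mitotic entry, Ccnb1, Ccnb2 and Ccna2 encode cyclins, Cdk1 the kinase they activate, Cdc25c a phosphatase that switches it on and Gtse1 a microtubule-binding protein of G2 that restrains p53. Ccnb2 stood at 51.0, 74.0 and 66.9 CPM with vehicle, 39.4, 46.7 and 44.0 under anti-PD1, 32.9, 42.6 and 54.6 under SN-38 and 66.6, 57.1 and 47.0 in the combination. Its anti-PD1 tumours were below all vehicle and all combination tumours, and SN-38 tumour 3 lay inside the vehicle range. Gtse1 was measured at 31.4, 38.3 and 31.6 CPM with vehicle, 21.9, 26.7 and 25.4 under anti-PD1, 22.4, 24.7 and 31.4 under SN-38 and 39.7, 39.3 and 29.98 in the combination. It had the smallest spread of the 36, and again anti-PD1 overlapped neither vehicle nor the combination. Cdk1 was at 73.4, 95.7 and 98.7 CPM with vehicle, 62.1, 70.6 and 65.3 under anti-PD1, 44.5, 68.1 and 82.4 under SN-38 and 92.4, 82.7 and 71.1 in the combination. Its combination range reached below the vehicle range by 1 tumour. Ccnb1, Cdc25c and Ccna2 had vehicle means of 66.8 ± 5.27, 17.1 ± 1.51 and 137.8 ± 21.7 CPM and anti-PD1 means of 51.7 ± 9.09, 11.9 ± 1.36 and 106.7 ± 12.6 (SD, n = 3). Of these, Ccna2 alone overlapped between both groups.

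The anaphase-promoting complex (APC/C) is represented by Cdc20, its mitotic activator, and Ube2c, the conjugating enzyme that starts ubiquitin chains on its targets. Ube2c stood at 55.9, 72.2 and 67.8 CPM with vehicle, 39.9, 52.2 and 46.4 under anti-PD1, 32.7, 43.9 and 58.2 under SN-38 and 59.3, 49.0 and 46.9 in the combination. Its anti-PD1 tumours were below all vehicle tumours, and 2 of the 3 combination tumours were as well. In the annotation 22.8% of the Ube2c exon bases overlap Tnnc2, a muscle troponin gene on the opposite strand, at 7.49 to 15.8 CPM with vehicle, 4.30 to 8.56 under anti-PD1, 1.33 to 7.51 under SN-38 and 0.09 to 6.32 in the combination. The strand setting of the counting is not given in the sources used here, and the part of this overlap in the Ube2c counts was not tested. Cdc20 was at 96.6, 139.7 and 114.9 CPM with vehicle, 83.2, 98.9 and 86.2 under anti-PD1, 69.3, 87.4 and 139.4 under SN-38 and 124.7, 116.1 and 91.2 in the combination, and its groups overlapped.

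The regulators of mitotic progression are the kinases Plk1, Aurka, Aurkb, Bub1 and Ttk, the checkpoint protein Bub1b and Birc5 (survivin), which is the partner of Aurkb in the chromosomal passenger complex. Ttk, the kinase that starts the spindle checkpoint at kinetochores, stood at 31.4, 36.9 and 33.7 CPM with vehicle, 20.3, 26.4 and 26.2 under anti-PD1, 15.6, 25.5 and 29.6 under SN-38 and 37.4, 31.5 and 31.9 in the combination. It was the only one of the 36 in which neither single treatment overlapped vehicle or the combination. Plk1, which drives centrosome maturation and spindle assembly, was at 49.2, 67.8 and 58.8 CPM with vehicle, 39.8, 50.003 and 44.7 under anti-PD1, 29.8, 49.4 and 49.7 under SN-38 and 66.1, 46.4 and 51.2 in the combination. Its vehicle and anti-PD1 tumours overlapped. Aurkb had a narrow vehicle range of 57.2 to 61.3 CPM and anti-PD1 values of 39.9, 51.5 and 45.8, without overlap, and its SN-38 values were 26.7, 49.7 and 57.7. Anti-PD1 tumours were below all vehicle tumours for Aurka, Bub1b and Birc5 as well, but not for Bub1.

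Kinetochores join chromosomes to spindle fibres, and the set holds the centromeric histone Cenpa, the scaffold Knl1, Ndc80 and Nuf2 of the microtubule-binding complex, the motor Cenpe and the outer protein Cenpf. Cenpe stood at 63.7, 84.9 and 79.4 CPM with vehicle, 62.2, 63.9 and 66.5 under anti-PD1, 45.9, 76.8 and 93.1 under SN-38 and 109.0, 94.7 and 87.8 in the combination. All combination tumours were above all vehicle and all anti-PD1 tumours. Cenpf was at 70.9, 84.7 and 84.8 CPM with vehicle, 72.0, 83.9 and 67.1 under anti-PD1, 47.3, 89.6 and 94.5 under SN-38 and 111.2, 86.6 and 85.9 in the combination, and it too was above vehicle in all 3 combination tumours. Nuf2 was at 29.6, 39.7 and 37.3 CPM with vehicle, 22.97, 29.9 and 25.03 under anti-PD1, 14.3, 25.8 and 34.6 under SN-38 and 34.0, 25.2 and 31.0 in the combination. Here combination tumour 2 lay below all vehicle tumours, unlike Cenpe and Cenpf. Ndc80, the partner of Nuf2, had means of 31.7 ± 2.89, 23.6 ± 3.05, 23.03 ± 7.97 and 28.7 ± 3.07 CPM in the 4 groups, and Knl1 33.2 ± 2.87, 29.5 ± 3.22, 31.1 ± 9.84 and 38.4 ± 5.58 (vehicle, anti-PD1, SN-38, combination; SD, n = 3).

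The spindle genes were Kif11, the motor that pushes the poles apart, Kif2c, which shortens microtubules, the chromosome motor Kif4, and the spindle proteins Tpx2, Nusap1 and Hmmr. Kif11 had means of 124.9 ± 18.1, 102.3 ± 9.69, 101.6 ± 33.4 and 125.1 ± 23.6 CPM (vehicle, anti-PD1, SN-38, combination; SD, n = 3), and its anti-PD1 tumour 2 was inside the vehicle range. Kif4 differed by group in its spread: the anti-PD1 tumours were at 31.9, 32.8 and 31.9 CPM and the SN-38 tumours at 23.9, 36.9 and 51.9. Nusap1 stood at 65.9, 72.9 and 77.5 CPM with vehicle, 51.3, 65.5 and 54.0 under anti-PD1, 32.7, 51.7 and 78.4 under SN-38 and 70.2, 62.8 and 56.8 in the combination. Anti-PD1 and vehicle did not overlap for Kif2c, Kif4, Tpx2 and Nusap1, and for Nusap1 the combination tumours overlapped both.

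Cytokinesis was represented by Kif23 and Racgap1, the pair that forms centralspindlin, Ect2, which they recruit to activate RhoA, Prc1, which bundles the midzone, Kif20a, a midzone motor, and Anln (anillin), which links the contractile ring to the membrane. Kif23 stood at 93.0, 115.1 and 115.5 CPM with vehicle, 61.8, 87.0 and 74.97 under anti-PD1, 51.0, 83.7 and 101.6 under SN-38 and 122.1, 101.1 and 106.0 in the combination. The anti-PD1 tumours were below all vehicle and combination tumours, and 2 of 3 SN-38 tumours were as well. Anln was at 186.7, 249.6 and 209.5 CPM with vehicle, 155.5, 173.1 and 150.3 under anti-PD1, 115.4, 159.1 and 212.1 under SN-38 and 263.8, 213.1 and 184.3 in the combination. It showed the same separation of anti-PD1 from vehicle and from the combination. Racgap1, Prc1 and Kif20a had vehicle means of 145.0 ± 24.3, 133.2 ± 19.0 and 81.4 ± 11.7 CPM and anti-PD1 means of 112.9 ± 11.7, 108.3 ± 13.6 and 65.0 ± 8.998, with overlapping tumours in each case. Ect2 had means of 79.9 ± 9.09 and 64.5 ± 5.61 CPM in these groups without overlap. Of the Kif20a exon bases, 29.3% overlap Cdc23, an APC/C subunit gene on the opposite strand. Another 9 of the 36 genes share a smaller part of their exons with a neighbour, and their counts may be divided uncertainly.

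Against vehicle, tumours given anti-PD1 alone had lower means of all 36 genes. The median log2 difference was -0.37 (0.77 times the vehicle level), from -0.56 for Ccnb2 to -0.11 for Cenpf, while 48.4% of all genes tested were lower and their median was 0.01. By role the medians were -0.44 for the 6 genes of entry and for the 2 of the APC/C, -0.37 for the 7 regulators, -0.31 for the 6 kinetochore genes, -0.35 for the 6 spindle genes, -0.34 for the 6 of cytokinesis and -0.18 for the 2 markers. In 21 of the 36 genes all anti-PD1 tumours were below all vehicle tumours, against 9.2% of all genes. The 36 genes were measured in the same tumours and moved together. Counts of genes, here and in the comparisons below, are therefore not counts of independent results. Called genes numbered 0, among the 36 and among all 16833 (0%). An unadjusted p below 0.05 was reached by 8, all lower, against 1.91% of genes, and DESeq2 and limma voom also called 0 of the 36. The smallest p belonged to Gtse1 (-0.45 ± 0.15, SE), Ccnb2 (-0.56 ± 0.20), Ube2c (-0.50 ± 0.19) and Kif23 (-0.53 ± 0.22), each with an adjusted p of 0.844 in edgeR's quasi-likelihood test. The number with an unadjusted p below 0.05 was 0 without vehicle tumour 2 or without anti-PD1 tumour 1, and 3 without vehicle tumour 3 or without anti-PD1 tumour 3.

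With SN-38 alone the 36 genes were again all lower in mean than with vehicle, but the difference rested on single tumours. The median was -0.34 (0.79 times), from -0.56 for Ccnb2 to -0.06 for Cenpf, with 48.8% of all genes lower. The vehicle tumours are the same as in the comparison with anti-PD1, so the values of both are given side by side only. The 7 regulators had a median of -0.41 and the 6 kinetochore genes one of -0.15. Only Ttk had all SN-38 tumours below all vehicle tumours, which is 1 of 36 against 7.96% of all genes. Called members numbered 0, against 0.00594% of genes (1 gene), and 5 had an unadjusted p below 0.05, against 3.34% lower, with 0 called by DESeq2 or limma voom. Ccnb2 (-0.56 ± 0.20, adjusted p = 0.395), Ube2c (-0.54 ± 0.19, 0.404), Ttk (-0.53 ± 0.20, 0.428) and Gtse1 (-0.37 ± 0.15, 0.471) came first in edgeR's test. Without SN-38 tumour 1, 29 genes were lower and 7 higher, the median was -0.13 and 0 had an unadjusted p below 0.05. Without SN-38 tumour 3 the median was -0.56 and 29 genes had one. That number was 0 without vehicle tumour 2 and 9 without vehicle tumour 1.

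The combination left the genes near their vehicle levels on average, with 20 lower and 16 higher, a median of -0.02 (0.99 times) and 48.4% of all genes lower. By role the medians were -0.21 for the 2 APC/C genes, -0.11 for the 6 entry genes, -0.10 for the 7 regulators, 0.00 for the 6 spindle genes, 0.01 for the 6 of cytokinesis, 0.14 for the 6 kinetochore genes and 0.16 for the markers, and differences between roles were not tested. Of the kinetochore genes, 4 were higher, while Nuf2 and Ndc80 were lower. Called genes numbered 0 (0% of all), and 0 of the 36 had an unadjusted p below 0.05, against 12.9% of all genes, with 0 called by DESeq2 or limma voom. Ube2c (-0.34 ± 0.19, adjusted p = 0.467), Cenpe (0.35 ± 0.21, 0.479), Cenpf (0.24 ± 0.22, 0.641) and Knl1 (0.21 ± 0.21, 0.656) had the smallest p in edgeR's test. Cenpe and Cenpf were above vehicle without overlap, which is 2 of 36 against 11.7% of genes, and 0 were below without overlap, against 11.8%. The number of lower genes was 30 without vehicle tumour 1, 14 without vehicle tumour 2, 27 without combination tumour 1, 18 without combination tumour 2 and 15 without combination tumour 3.

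**Figure D4:**
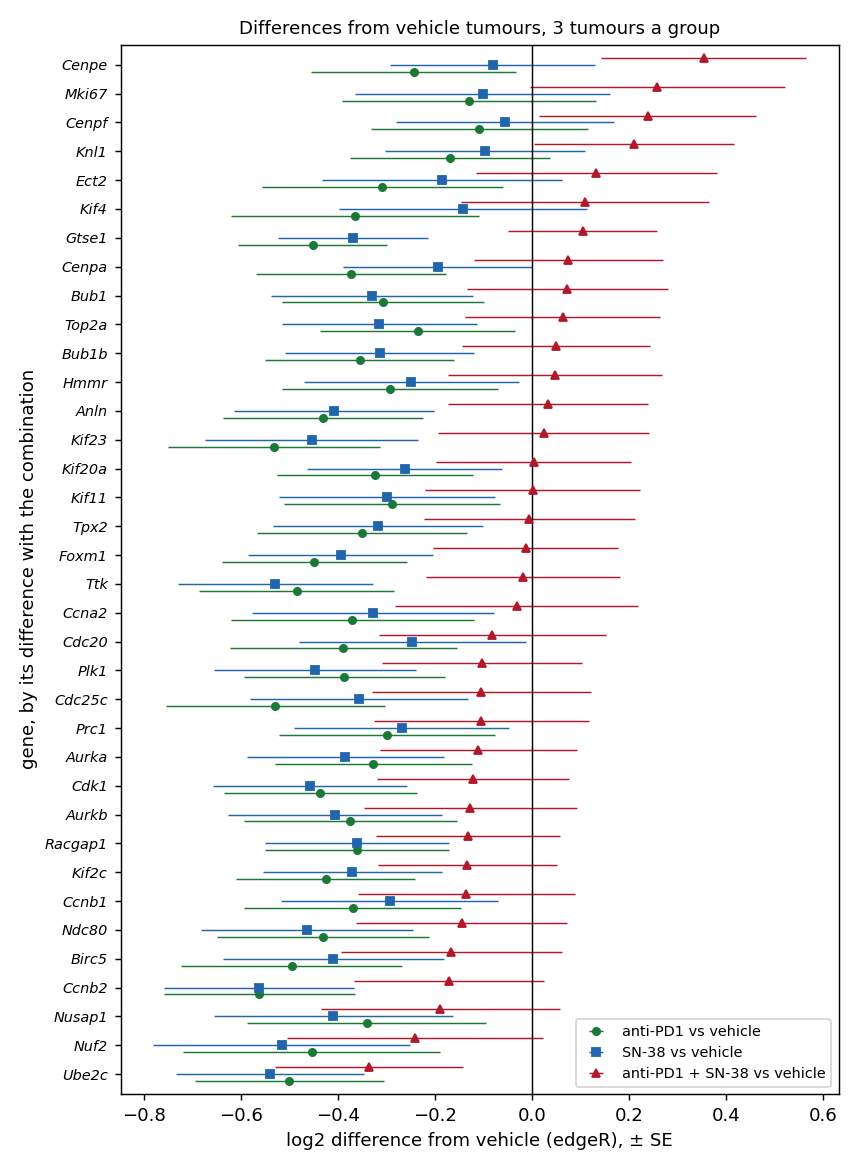
Fitted log2 difference from vehicle (horizontal axis, ± SE) of each of the 36 genes with anti-PD1 (circles), SN-38 (squares) and the combination (triangles), ordered by the difference with the combination. All circles and squares are below 0, from -0.56 to -0.06, and the triangles run from -0.34 for Ube2c to 0.35 for Cenpe. The 3 comparisons share the vehicle tumours.

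Compared with the antibody alone, the combination had higher means of all 36 genes, against 50.3% of all genes. The median was 0.34 (1.27 times), from 0.15 for Nusap1 to 0.60 for Cenpe. In 19 genes all combination tumours were above all anti-PD1 tumours, against 6.93% of genes, among them Mki67, Top2a, Foxm1, Ccnb2, Cdk1, Gtse1, Bub1b, Ttk, Cenpa, Cenpe, Cenpf, Knl1, Tpx2, Kif23 and Anln. Called genes numbered 0 (0%), and 7 of the 36 had an unadjusted p below 0.05, against 4.8% higher, with 0 called by DESeq2 or limma voom. Gtse1 (0.56 ± 0.15, adjusted p = 0.465), Cenpe (0.60 ± 0.21, 0.558), Kif23 (0.56 ± 0.22, 0.594) and Ttk (0.47 ± 0.20, 0.610) came first in edgeR's test. Without combination tumour 1 the median was 0.22 and 1 gene had an unadjusted p below 0.05. That number was 2 without anti-PD1 tumour 1 or 3, 3 without combination tumour 2 and 11 without combination tumour 3.

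Compared with SN-38 alone, the combination was also higher in the means of all 36 genes, against 48.3% of all genes, with a median of 0.30 (1.23 times) and a range from 0.16 for Ccnb1 to 0.51 for Ttk. Ttk alone had no overlap (1 of 36 against 5.08%). Called genes numbered 0 (0%), and 2 had an unadjusted p below 0.05, against 4.76% higher, with 0 called by DESeq2 or limma voom. Gtse1 (0.47 ± 0.15, adjusted p = 0.618), Ttk (0.51 ± 0.20, 0.618), Kif23 (0.48 ± 0.22, 0.634) and Anln (0.44 ± 0.21, 0.635) came first in edgeR's test. Without SN-38 tumour 1, 31 genes were higher and 5 lower, with a median of 0.07, and without combination tumour 1 the median was 0.18. Without SN-38 tumour 3 it was 0.55, with 29 genes at an unadjusted p below 0.05, and without combination tumour 3 there were 6 such genes.

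The interaction, the antibody's difference in the presence of SN-38 minus that in its absence, was above 0 for all 36 genes, against 48.2% of all genes. Its median was 0.66 on the log2 scale, with a range from 0.40 for Cenpf to 1.01 for Kif23, and it uses the same tumours as the pairwise comparisons. Called genes numbered 0 (0%), and 17 of the 36 had an unadjusted p below 0.05, against 3.4% of genes above 0, with 0 called by DESeq2 or limma voom. Gtse1 (0.93 ± 0.22), Ttk (0.997 ± 0.28), Ccnb2 (0.95 ± 0.28) and Kif23 (1.01 ± 0.31) had the smallest p, each with an adjusted p of 0.597 in edgeR's test. By role the medians were 0.78 for entry, 0.72 for the regulators, 0.66 for kinetochores, 0.63 for the APC/C, 0.61 for cytokinesis and 0.60 for the spindle. The median was 0.44 without SN-38 tumour 1. The number with an unadjusted p below 0.05 was 34 without SN-38 tumour 3, 11 without anti-PD1 tumour 3, 8 without vehicle tumour 3 and 7 without vehicle tumour 2, anti-PD1 tumour 1 or combination tumour 1.

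Other genes of mitosis from the lists used here followed the 36 in direction. Of 78 further genes tested (chromosomal passenger and cohesion factors, condensins, other kinetochore, spindle and cytokinesis genes), 77 were lower with anti-PD1 (median -0.33), 76 with SN-38 (-0.30) and 46 with the combination (-0.03) than with vehicle. In the interaction 77 were above 0 (0.65), and none passed in any comparison. Smc4, a condensin subunit, was at 222.4 ± 13.4, 207.9 ± 9.504, 204.4 ± 35.9 and 247.8 ± 28.4 CPM, and Hjurp, the chaperone that deposits Cenpa, at 165.5 ± 8.29, 144.1 ± 4.74, 154.3 ± 30.3 and 193.6 ± 17.8 (vehicle, anti-PD1, SN-38, combination; SD, n = 3). The 16 constitutive APC/C genes, which are expressed through the whole cycle, had medians of -0.05, -0.03 and -0.07 against vehicle and -0.02 in the interaction, and the 3 NF-Y subunit genes -0.04, -0.07, -0.11 and -0.02.

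The 38 DNA replication genes belong to the earlier S-phase programme. Against vehicle, 37 were lower with anti-PD1 (median -0.30), 38 with SN-38 (-0.30) and 33 with the combination (-0.10). In the combination, 35 were higher than with anti-PD1 (0.22) and 34 higher than with SN-38 (0.22). The interaction was above 0 for 37 (0.54), so this direction was not particular to the mitotic genes. None passed in any comparison. The mitotic score minus the replication score was 0.59, 0.71 and 0.62 with vehicle, 0.58, 0.68 and 0.50 under anti-PD1, 0.55, 0.69 and 0.62 under SN-38 and 0.92, 0.77 and 0.47 in the combination. The 3 first groups occupied nearly the same range, so both programmes stood in a like ratio in SN-38 tumour 1 as in vehicle tumours. Only the combination tumours spread beyond it, with tumour 1 highest and tumour 3 lowest of all 12.

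**Figure D5:**
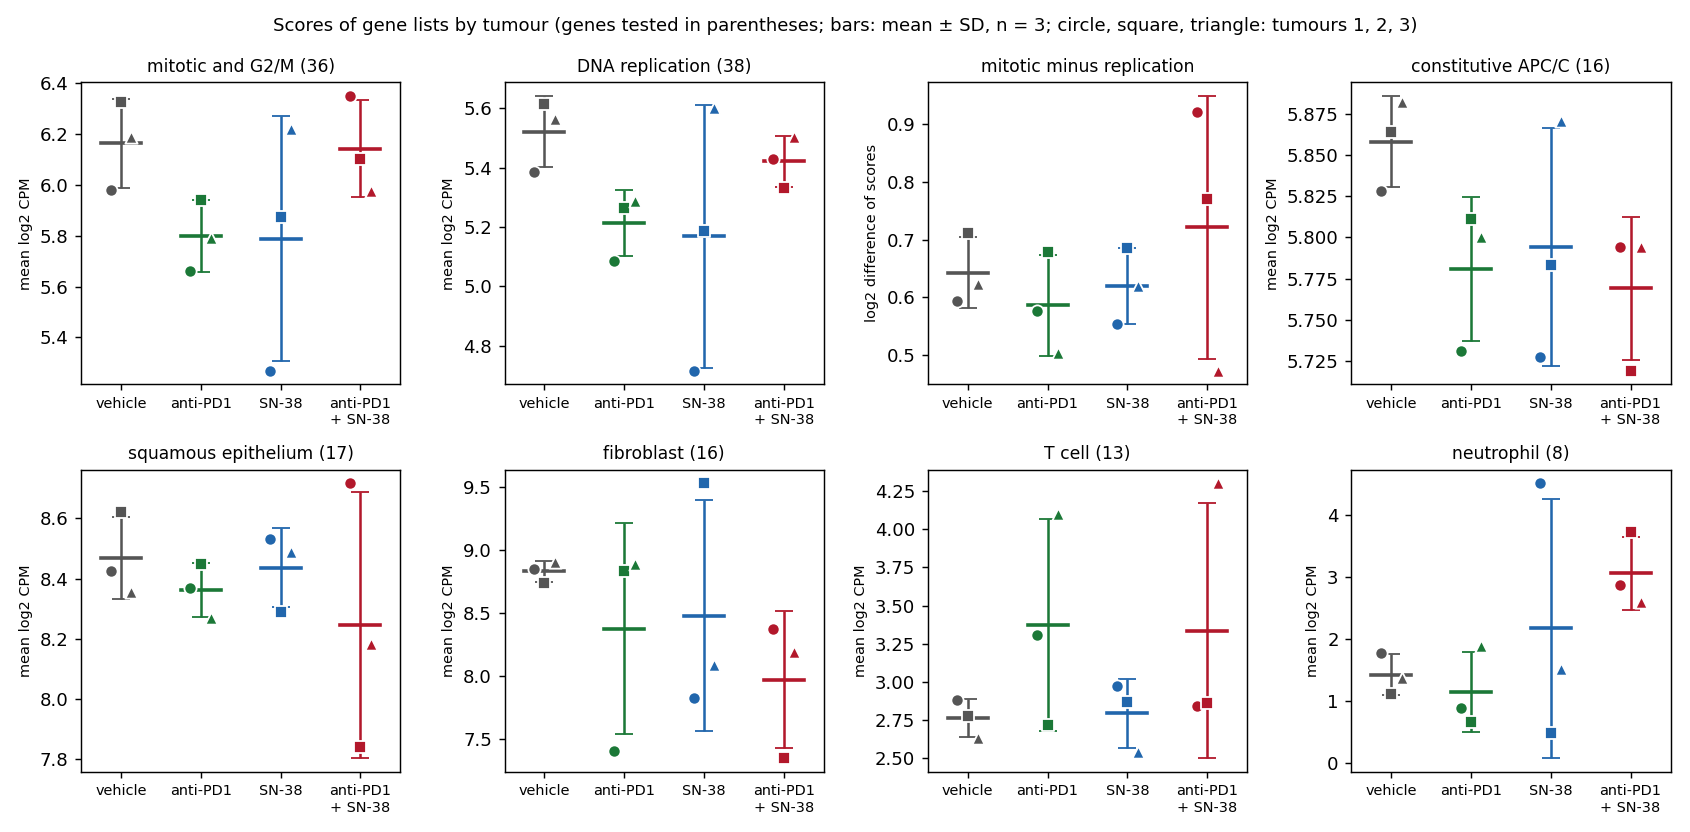
Scores (mean log2 CPM, vertical axes) of the 36 mitotic genes and of lists of DNA replication, constitutive APC/C, squamous, fibroblast, T-cell and neutrophil genes, with the mitotic minus replication difference, in each tumour by group (bars: mean ± SD, n = 3). The replication panel has the same order of tumours in its SN-38 group as the mitotic panel, from 4.72 to 5.60, and the vertical scales differ between panels.

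Within the set, the shift between the combination and vehicle was graded. Relative to the mean of the 36 genes it ran from -0.31 for Ube2c, -0.22 for Nuf2 and -0.17 for Nusap1 to 0.23 for Knl1, 0.25 for Cenpf, 0.26 for Mki67 and 0.38 for Cenpe. The 4 genes at the upper end have merged exons of 8542 (Knl1), 15433 (Cenpf), 10061 (Mki67) and 8620 bases (Cenpe), and the 3 at the lower end 2600 (Ube2c), 6341 (Nuf2) and 4059 (Nusap1). The 9 longest genes by merged exon length had a median log2 difference of 0.06 between the combination and vehicle, and the 9 shortest one of -0.13. Between anti-PD1 and vehicle these medians were -0.24 and -0.39, and between SN-38 and vehicle -0.27 and -0.41. Over the 36 genes, Spearman's rho between length and the difference was 0.44 for anti-PD1, 0.41 for SN-38 and 0.51 for the combination, and over 16826 genes with a length it was 0.10, 0.21 and 0.12. In the interaction the sign turned: rho was -0.22 over the 36 and -0.13 over all genes, and the medians were 0.59 for the 9 longest and 0.70 for the 9 shortest. These are descriptions across genes measured in the same tumours, which are not independent replicates, and the part of transcript length in the values was not tested.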

How the data were processed

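Bulk tumour RNA was sequenced from TruSeq stranded mRNA libraries, per the labels' protocols. The deposited values are raw counts per Ensembl gene, 1 column per tumour. The submitters' processing notes name cutadapt 2.4, STAR 2.7.2a and the build GRCm38. The counting program, strand setting and annotation release are not given in the sources used here, so overlapping genes may be counted uncertainly. Of the 54446 identifiers, 54409 matched GENCODE M21, which gave symbols and exon lengths.

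Genes were filtered with filterByExpr (16833 kept), scaled by TMM and fitted over all 12 tumours in edgeR 4.0.16 (R 4.3.3) with robust quasi-likelihood. P-values were Benjamini-Hochberg adjusted over all genes, with a threshold of 0.05. CPM used TMM library sizes, and log2 CPM a prior count of 1. A score is the mean log2 CPM of a list. Groups came from the sample titles. Alternatives were RLE scaling, no filter, a replicate block, DESeq2 1.42.0, limma 3.58.1 voom, only the groups compared, and leaving out each tumour. The fits were run on simulated data with changes in the combination group only. Recovery of a change between a single treatment and vehicle was therefore not tested. No 2 tumours of a group agreed within sampling noise (lowest chi-square per degree of freedom 11.838). The members and lists were chosen with earlier results of these data known. All 36 members may be named with their CPM. Fitted differences with SE and adjusted p are given for the 4 members with the smallest p in each comparison, and other lists are represented by their most abundant gene or by genes of small p.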

Additional observations from a re-analysis of the deposited data

Results flagged for a closer look

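The antibody's difference in the mitotic score pointed in opposite directions without and with SN-38. Without SN-38, the 3 anti-PD1 tumours differed from the vehicle mean by -0.50 to -0.22 in mean log2 CPM, and with SN-38 the 3 combination tumours differed from the SN-38 mean by 0.19 to 0.56. The mean differences were -0.37 and 0.35, and the difference between them was 0.72. It stands out because each anti-PD1 tumour was below the vehicle mean and each combination tumour above the SN-38 mean. That SN-38 mean holds SN-38 tumour 1, the lowest of the 12. Without it the combination tumours differed from the SN-38 mean by -0.07 to 0.30 (mean 0.096), on both sides of 0, and SN-38 tumour 3 was above 2 of the 3 combination tumours. The difference of the scores was not tested, and none of the 36 genes passed the interaction test on its own.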

How the results depend on the processing

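Members called stayed at 0 in all 6 comparisons under every alternative run. The median difference of the 36 genes ranged, over the fits that leave out 1 tumour, from -0.47 to -0.27 for anti-PD1 against vehicle, from -0.56 to -0.13 for SN-38, from -0.15 to 0.06 for the combination, from 0.22 to 0.43 for the combination against anti-PD1, from 0.07 to 0.55 against SN-38 and from 0.44 to 0.92 for the interaction. The smallest adjusted p of a member was 0.0723, for the interaction with DESeq2, where the other settings gave 0.224 to 0.958. Fitted on only the groups compared, 29 members had an unadjusted p below 0.05 for anti-PD1 and 18 for the combination against anti-PD1, against 8 and 7 with all tumours. The replicate numbers of the titles gave no steady sign of pairing. Of 18 same-numbered pairs, 4 correlated above 0.1 (-0.46 to 0.61), and 5 of 12 tumours were closest to their own number. Such correlations cannot exclude a pairing. The column numbers of the count table differ from the title numbers for vehicle, and pairing by column number was not examined. With the replicate block, 0 members were called, and the medians were -0.37, -0.35, 0.00, 0.36, 0.33 and 0.70 in the same order. Over all genes DESeq2 called 28, 150, 173, 77, 51 and 16, where edgeR called 0, 1, 0, 0, 0 and 0, and the cause was not tested. The 1 gene for SN-38 against vehicle was called in none of the fits without the filter, with the block, on only those groups or without any 1 tumour, and 1 gene was called for the combination against anti-PD1 without the filter and without combination tumour 3. With each member scaled to an SD of 1, the group scores were 0.59, -0.54, -0.57 and 0.52 (vehicle, anti-PD1, SN-38, combination). These scores are in SD units and weight the genes differently from the mean log2 CPM. Depth limits little here, since the lowest member count was 227. Precision depends on the 3 tumours a group and on which groups share the estimate of the spread.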

Other observations

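Of 10 genes that hold Cdk1 inactive or arrest the cycle, 7 were lower with anti-PD1 (median log2 difference -0.16), 9 with SN-38 (-0.18) and 6 with the combination (-0.07) than with vehicle. In the interaction 5 were above 0 and 5 below, with a median of 0.24. Cdkn1a, which encodes the inhibitor p21, had means of 84.3 ± 6.57, 69.4 ± 3.57, 70.9 ± 27.2 and 87.7 ± 15.5 CPM (SD, n = 3) with vehicle, anti-PD1, SN-38 and the combination. Both single-treatment means were below those of vehicle and combination, as for the mitotic genes, but the SN-38 tumours differed from theirs. Cdkn1a stood at 79.9, 40.3 and 92.5 CPM under SN-38, against 76.8 to 88.7 with vehicle. Only SN-38 tumour 2 was below that range, while SN-38 tumour 1 was lowest for 35 of the 36 mitotic genes. Cdkn1a is named here after its values were seen. Wee1, the kinase that inhibits Cdk1, stood at 70.1, 65.2 and 67.6 CPM with vehicle, 57.9, 69.2 and 67.4 under anti-PD1, 42.5, 56.0 and 54.5 under SN-38 and 47.8, 41.1 and 49.3 in the combination. All 6 tumours given SN-38, alone or with the antibody, were below all vehicle tumours. Of all genes tested, 7.96% were lower than vehicle without overlap under SN-38 and 11.8% in the combination. The share lower in both at once is not given, and Wee1 is 1 of the 10 genes listed. Cdkn1b, the most abundant gene of this list, was at 126.6 ± 7.89, 131.6 ± 19.5, 162.3 ± 27.6 and 131.2 ± 13.1 CPM in the same order (SD, n = 3). No gene of the list passed the threshold in any comparison.

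Mybl2, which encodes B-Myb, the subunit that turns MuvB into an activator of the mitotic genes, was at 23.9, 24.95 and 23.4 CPM with vehicle, 14.9, 19.3 and 19.1 under anti-PD1, 11.8, 14.1 and 23.3 under SN-38 and 21.6, 24.1 and 27.0 in the combination. All anti-PD1 and all SN-38 tumours were below all vehicle tumours, SN-38 tumour 3 by a margin smaller than the spread of the vehicle tumours. Of all genes tested, 9.2% were lower than vehicle without overlap under anti-PD1 and 7.96% under SN-38. For these groups too, the share lower in both at once is not given. Mybl2 did not pass in any comparison. The 13 genes of the DREAM and MuvB list as a whole had median differences of -0.03, -0.09 and 0.00 from vehicle.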
